A study of Caenorhabditis elegans with 12 samples.

Results

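The genes described here belong to families of substrate adaptors and core parts of cullin-type ubiquitin ligases in Caenorhabditis elegans. They encode F-box proteins (fbxa, fbxb and fbxc genes) and proteins with a MATH domain, a BTB domain or both (math, btb and bath genes). Skp1-related proteins (skr genes) and cullins (cul genes) are included. All are called adaptor genes below for short, although skr and cul genes encode core parts and a math gene need not encode an adaptor. Members were all genes in the authors' 3 deposited tables whose WormBase symbol begins with 1 of these 8 prefixes. They numbered 52 of the 2949 genes with values. Total RNA had been sequenced from early embryos of 4 strains with 3 libraries each. The molecule field of the labels reads genomic DNA, whereas the design and extraction texts describe RNA, and the values were taken as RNA. The strains were a double mutant carrying lin-65(delta) on chromosome I and met-2(n4256) on chromosome III, the lin-65(delta) single mutant, the met-2(n4256) single mutant and the wild type N2 (Bristol). All were grown at 20 °C for 60 to 65 h after synchronization, depending on the strain, and the embryos spanned about 1 to 300 cells. Each library pooled whole embryos of mixed stages, so that fewer cells of a type and less RNA per cell cannot be told apart.

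In an SCF ubiquitin ligase, the F-box of the adaptor binds a Skp1-related protein, which binds the cullin, and the rest of the adaptor binds the protein to be marked with ubiquitin. In a CUL-3 ligase, a BTB protein takes the place of both the Skp1-related protein and the F-box protein, and a MATH domain in the same protein can bind the substrate. The best known BTB and MATH protein of the worm, MEL-26, marks the katanin MEI-1 for removal in the embryo after meiosis. The worm genome holds large families of such adaptors, often in tandem arrays, and the substrates of most single members are not known. MET-2 corresponds to SETDB1 of mammals, an enzyme that methylates histone H3 at lysine 9, and LIN-65 is a protein that works with it. This methylation is densest on the arms of the worm's autosomes.

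Values were log2 ratios, 1 per gene for each of the 9 mutant libraries. No header names their baseline. It was taken to be N2, because the lin-65 transcript stood at −6.04 ± 0.21 in the double mutant and −5.88 ± 0.09 in lin-65, against −0.22 ± 0.04 in met-2, and the met-2 transcript stood at −2.76 ± 0.06 in the double mutant and −2.36 ± 0.04 in met-2, against −0.024 ± 0.084 in lin-65 (SD, n = 3 libraries). The tables give neither counts nor N2 values. Depth is therefore unknown, embryo markers could not be checked for their level, and no test against N2 was possible. A gene is called listed higher or lower in a mutant when it is in that mutant's table, where every mean is at least 1 log2 unit (2-fold) in size. Differences between mutants do not need the baseline and were tested with limma over all 2949 genes, with Benjamini-Hochberg adjustment at 0.05. Genes entered through a listing in at least 1 mutant, so these tests draw in part on the values that selected the genes. The labels describe the libraries as independent biological replicates. The median SD of the 52 adaptor genes over 3 libraries was 0.14 in the double mutant, with 0.14 in lin-65 and 0.23 in met-2. The median over all genes was 1.47, 1.48 and 1.49 in the double mutant, 0.78, 0.97 and 0.77 in lin-65, and 1.53, 1.06 and 1.08 in met-2. Replicate 1 of met-2 thus stood above the other met-2 libraries. Germ line and oocyte markers with values (7 of 10) had library medians of 0.92 to 1.03 in the double mutant, 1.46 to 1.86 in lin-65 and 0.27 to 0.50 in met-2. Those of body wall muscle (9 of 10) had medians of 2.14 to 2.21 in the double mutant, 0.92 to 1.28 in lin-65 and 1.57 to 2.18 in met-2. Markers of intestine (4 of 9), neurons (5 of 8), pharynx (4 of 5) and epidermis (1 of 6) had, like muscle, their highest median in the double mutant and their lowest in lin-65. All 5 heat shock genes had values, and their median was −2.97 in the double mutant, with −2.53 in lin-65 and −0.32 in met-2. The part of these markers in the values of the adaptors was not tested.

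Adaptor genes went in both directions, and the direction differed by family. Of the 52 genes 38 were listed higher wherever they were listed and 14 were listed lower, with none mixed. Of all 2949 genes with values 2761 were listed higher and 186 lower in the same sense. Mixed genes were thus rare among all genes too. The 22 math, bath and btb genes were listed higher with the exception of bath-34. The 28 F-box genes were divided, with 13 fbxa genes, 1 fbxb gene and 1 fbxc gene listed higher and 3 fbxa, 6 fbxb and 4 fbxc genes listed lower. Both the skr and the cul gene were listed higher. In the annotation these families hold 438 genes, so that 386 had no value here, 294 of them F-box genes. A value was present for 24.4% of math, bath and btb genes and 8.70% of F-box genes. Of all genes with values 2869 matched the annotation, which holds 19985 protein-coding genes. Listing is the authors' selection, and being in a table was part of the choice of members, so these counts are a description only.

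By mutant, 23 of the 52 genes were in the double mutant's table with a higher value, beside 85.0% of all genes with values, and 13 were listed lower, beside 4.41%. In lin-65, 17 were listed higher, beside 29.0% of all genes, and 6 lower, beside 4.04%. In met-2, 20 were listed higher, beside 65.2%, and 1 lower, beside 0.644%. Most values lay between the baseline and 4-fold. Among the 38 genes listed higher, the median was 1.09 in the double mutant, with 0.85 in lin-65 and 1.09 in met-2, beside 1.52, 0.86 and 1.24 over all 2761 genes listed higher. Only bath-47 in the double mutant and bath-3 in met-2 reached 4-fold, beside 23.1% and 10.4% of all genes listed higher. Among the 14 listed lower, the median was −1.17 in the double mutant, with −0.97 in lin-65 and −0.52 in met-2, beside −1.09, −1.08 and −0.52 over all 186 genes listed lower. The smallest absolute means that were listed were 1.01 for fbxc-43 in the double mutant, 1.00 for bath-30 in lin-65 and 1.05 for fbxc-20 in met-2. Just under 2-fold and unlisted were btb-20 at 0.997 in the double mutant, fbxb-92 at −0.98 in lin-65 and cul-6 at 0.96 in met-2. Past 2-fold in its mean but unlisted were math-3 in lin-65 and fbxa-157 in met-2.

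Of the F-box genes listed higher, fbxa-136, fbxa-24, fbxa-211 and fbxa-137 had the largest means over the 9 libraries. They encode F-box proteins of the A family, whose substrates are not known. fbxa-136 (chromosome V) stood at 2.06, 1.98 and 1.36 in the double mutant, 1.43, 1.68 and 1.78 in lin-65 and 2.35, 1.54 and 1.93 in met-2. All 9 libraries were more than 2-fold above the baseline, and the libraries of the 3 mutants overlapped. fbxa-137 (chromosome V) stood at 1.97, 1.48 and 1.60 in the double mutant, 1.08, 1.50 and 1.04 in lin-65 and 1.44, 1.17 and 1.13 in met-2. It was highest in the double mutant, where replicate 1 exceeded every library of the other mutants, while replicate 2 lay below the highest lin-65 library. fbxa-24 (chromosome II) stood at 1.79, 1.70 and 1.84 in the double mutant, 0.39, 0.72 and 0.84 in lin-65 and 2.24, 1.84 and 1.66 in met-2. Its lin-65 libraries were all below those of the double mutant and met-2, which overlapped. The lin-65 libraries were also the lowest for fbxa-156 and fbxa-157, which lie close together on chromosome V. fbxa-156 stood at 1.25, 1.51 and 1.68 in the double mutant, 0.85, 0.52 and 0.70 in lin-65 and 1.67, 1.44 and 1.19 in met-2. fbxa-157 stood at 1.72, 1.73 and 1.79 in the double mutant, 0.78, 0.73 and 1.00 in lin-65 and 1.59, 1.53 and 1.25 in met-2. For both genes the lin-65 values were thus separate from those of the other mutants.

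fbxa-107, another F-box gene of the A family, was the adaptor gene with means over 0.5 log2 units in size and opposite signs in 2 mutants. It stood at −0.70, −0.51 and −0.51 in the double mutant, 1.64, 1.92 and 1.53 in lin-65 and −0.022, 0.39 and 0.33 in met-2. Every library of the double mutant was below the baseline and every lin-65 library was more than 2-fold above it, with met-2 between. fbxa-211 lies close by on chromosome V, on the same strand, and had a different order. It stood at 0.89, 0.89 and 0.99 in the double mutant, 1.45, 1.47 and 1.39 in lin-65 and 1.71, 1.67 and 2.04 in met-2. Its libraries were lowest in the double mutant, and met-2 and lin-65 did not overlap either. The single fbxb and fbxc genes listed higher were fbxb-114 and fbxc-20. fbxb-114 (chromosome X) stood at 1.74, 1.90 and 1.84 in the double mutant, 0.64, 0.59 and 1.19 in lin-65 and 1.79, 1.26 and 1.34 in met-2. fbxc-20 (chromosome II) stood at 1.30, 1.47 and 1.28 in the double mutant, 1.12, 1.38 and 1.16 in lin-65 and 1.35, 0.88 and 0.93 in met-2. fbxb-114 was lower in every lin-65 library than in any other library, and the libraries of fbxc-20 overlapped between mutants. fbxc-20 overlaps F42G2.7 on the same strand, and reads may have been divided between them.

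The remaining F-box genes listed higher are given by their means ± SD over 3 libraries. Listed in lin-65 alone were fbxa-197, fbxa-2 and fbxa-206. fbxa-197 stood at 1.00 ± 0.34 in the double mutant, with 1.24 ± 0.22 in lin-65 and 0.79 ± 0.092 in met-2. fbxa-2 stood at 0.88 ± 0.10 in the double mutant, with 1.17 ± 0.085 in lin-65 and 0.50 ± 0.32 in met-2. fbxa-206 stood at 0.70 ± 0.13 in the double mutant, with 1.24 ± 0.16 in lin-65 and 0.63 ± 0.067 in met-2. These 3 genes had the same order of means, with lin-65 highest and met-2 lowest. That lin-65 was highest largely follows from their being listed there alone. fbxa-114, listed in all 3 mutants, stood at 1.05 ± 0.081 in the double mutant, with 1.12 ± 0.11 in lin-65 and 1.12 ± 0.19 in met-2. fbxa-166, listed in met-2 alone, stood at 0.56 ± 0.25 in the double mutant, with 0.62 ± 0.22 in lin-65 and 1.06 ± 0.092 in met-2.

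The F-box genes listed lower were led by fbxb genes. fbxb-97 (chromosome II) stood at −1.54, −1.36 and −1.32 in the double mutant, −1.49, −1.41 and −1.27 in lin-65 and −0.52, −0.20 and −0.035 in met-2. Its double mutant and lin-65 libraries overlapped, and both were below every met-2 library. fbxb-14 (chromosome II) stood at −1.01, −1.20 and −1.06 in the double mutant, −1.10, −1.56 and −0.90 in lin-65 and −0.78, −0.014 and −0.072 in met-2. Its met-2 libraries were again the highest, and replicate 1 stood below the other met-2 replicates. fbxb-115 (chromosome V) stood at −1.30, −1.46 and −1.04 in the double mutant, −1.02, −1.01 and −0.82 in lin-65 and −0.64, −0.40 and −0.51 in met-2. It was below the baseline in every library, with met-2 nearest to it. fbxb-14 overlaps W08F4.12 and fbxb-115 overlaps str-81, each on the same strand. fbxb-91 and fbxb-92 lie close together on chromosome II. fbxb-91 stood at −1.12, −1.05 and −0.93 in the double mutant, −0.69, −0.61 and −0.90 in lin-65 and −0.95, −0.85 and −0.72 in met-2. fbxb-92 stood at −1.45, −1.32 and −1.46 in the double mutant, −1.07, −0.82 and −1.06 in lin-65 and −0.98, −0.90 and −0.73 in met-2. Both genes were below the baseline in all 9 libraries, and lin-65 overlapped met-2. fbxb-64, listed lower in lin-65 alone, stood at −0.87 ± 0.38 in the double mutant, with −1.01 ± 0.24 in lin-65 and −0.46 ± 0.25 in met-2 (mean ± SD, n = 3).

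All 4 fbxc genes listed lower were listed in the double mutant alone, beside 29.6% of all genes listed lower. Of these, fbxc-12 and 2 identifiers that share the symbol fbxc-8 lie on chromosome IV with gaps of at most 20 kb. Their annotated lengths are 1782 bases for fbxc-12, 1781 for WBGene00045301 and 1782 for WBGene00019072, and reads may have been divided between them. fbxc-12 stood at −0.93, −1.24 and −0.93 in the double mutant, −0.44, −0.49 and −0.46 in lin-65 and −0.16, −0.32 and −0.38 in met-2. The fbxc-8 gene WBGene00019072 stood at −0.99, −1.42 and −1.32 in the double mutant, −0.57, −0.62 and −0.77 in lin-65 and −0.44, −0.53 and −0.59 in met-2. The fbxc-8 gene WBGene00045301 stood at −0.88, −1.31 and −1.07 in the double mutant, −0.54, −0.80 and −0.69 in lin-65 and −0.56, −0.72 and −0.70 in met-2. For each of the 3 genes every library of the double mutant was below every library of both single mutants. Their being listed in the double mutant alone favours this separation. fbxc-43 (chromosome II) stood at −0.70, −1.33 and −0.99 in the double mutant, −0.64, −1.33 and −0.87 in lin-65 and −0.28, −0.67 and −0.97 in met-2. Its mutants overlapped, and its lowest value was identical in replicate 2 of the double mutant and replicate 2 of lin-65.

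The 3 fbxa genes listed lower differed in their order. fbxa-47 (chromosome III) stood at −1.31, −1.20 and −1.47 in the double mutant, −1.41, −0.89 and −1.48 in lin-65 and −0.42, −0.89 and −0.18 in met-2. Its double mutant libraries were all below those of met-2. fbxa-218 (chromosome III) stood at −1.32, −1.68 and −1.01 in the double mutant, −0.64, −0.56 and −0.48 in lin-65 and −0.76, −1.38 and −1.41 in met-2. It was the only adaptor gene listed lower in met-2, and lin-65 was nearest to the baseline. fbxa-131 (chromosome V) stood at −0.92, −1.26 and −1.09 in the double mutant, −1.26, −0.85 and −1.26 in lin-65 and −1.08, −0.90 and −0.63 in met-2. Its lowest value occurred identically in replicate 2 of the double mutant and replicates 1 and 3 of lin-65. Of all 2949 genes 8 had a lowest value shared by several libraries, and the value of fbxa-131 recurred in arrd-3 and that of fbxc-43 in F16G10.14. Whether these values mark libraries without reads was not tested, and the sizes given for fbxa-131 and fbxc-43 may be limits.

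**Figure D1:**
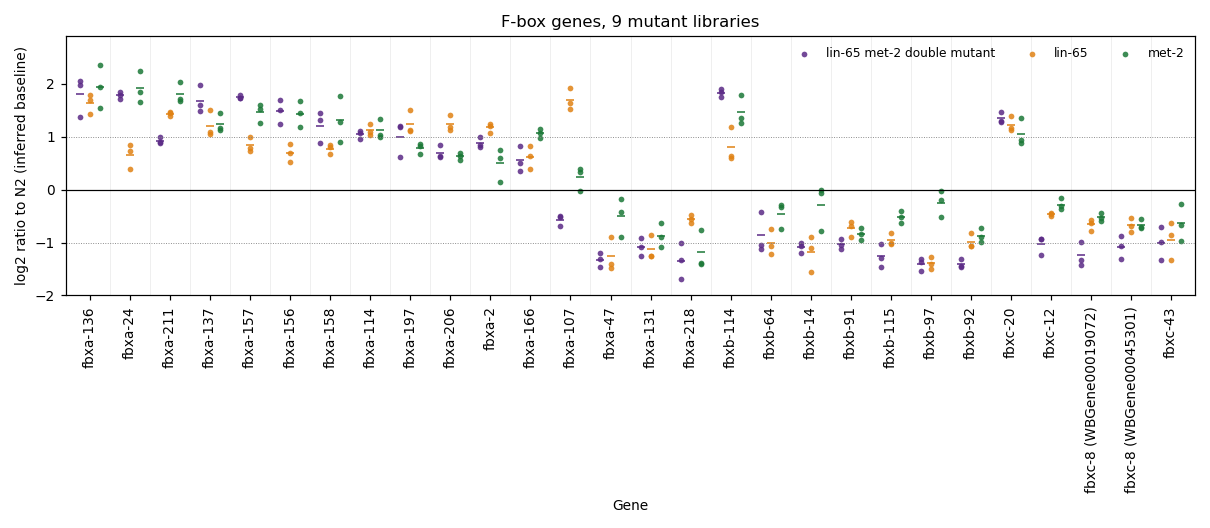
Log2 ratio to the inferred N2 baseline (vertical axis) of the 28 F-box genes with values, grouped as fbxa, fbxb and fbxc, with 1 point per library in columns for the double mutant, lin-65 and met-2 from left to right, short bars for means of 3 libraries and dotted lines at 2-fold. The fbxb and fbxc genes lie below 0 except fbxb-114 and fbxc-20, and fbxa-107 is below 0 in the double mutant and above 0 in lin-65.

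The math genes are named for the MATH domain, which binds other proteins. All 9 were listed higher, 8 of them in the double mutant, with a median of 1.19 there. Of all 2949 genes with values 2761 were listed higher, and 85.0% were listed higher in the double mutant. The math counts were thus near the shares over all genes. Over all genes listed higher the median in the double mutant was 1.52. math-3 (chromosome II) stood at 1.90, 1.77 and 2.07 in the double mutant, 1.14, 1.46 and 0.86 in lin-65 and 2.06, 1.23 and 1.48 in met-2. math-26 stood at 1.43, 1.66 and 1.48 in the double mutant, 0.91, 1.06 and 0.35 in lin-65 and 1.76, 1.37 and 1.20 in met-2. These genes overlap on the same strand, so their values are not independent, and both were above the baseline in all 9 libraries. math-39 stood at 1.20, 1.44 and 1.27 in the double mutant, 0.68, 1.11 and 0.68 in lin-65 and 1.42, 0.97 and 1.15 in met-2. math-18 stood at 0.91, 1.44 and 1.21 in the double mutant, 0.68, 0.74 and 0.76 in lin-65 and 1.25, 1.20 and 1.66 in met-2. The lin-65 libraries were all below those of met-2 for math-18 and overlapped them for math-39. math-41 stood at 1.12, 1.06 and 1.05 in the double mutant, 0.11, 0.37 and 0.12 in lin-65 and 0.98, 0.54 and 0.61 in met-2. math-24 stood at 0.89, 0.83 and 0.98 in the double mutant, −0.27, 0.67 and −0.0073 in lin-65 and 1.45, 0.94 and 1.22 in met-2. In lin-65, math-41 was close to the baseline and math-24 lay on both sides of it, while both genes were above the baseline in every library of the other mutants. math-4, math-21 and math-42 were listed in the double mutant alone (mean ± SD, n = 3). math-4 stood at 1.23 ± 0.17 in the double mutant, with 0.56 ± 0.027 in lin-65 and 0.73 ± 0.45 in met-2. math-21 stood at 1.13 ± 0.098 in the double mutant, with 0.49 ± 0.25 in lin-65 and 0.74 ± 0.43 in met-2. math-42 stood at 1.06 ± 0.18 in the double mutant, with 0.77 ± 0.13 in lin-65 and 0.84 ± 0.19 in met-2. All 3 had their largest mean in the double mutant, which largely follows from being listed there alone, and their smallest in lin-65.

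The bath genes are named for a BTB and a MATH domain in 1 protein. Of 11 bath genes 10 were listed higher, beside 2761 of all 2949 genes with values. Of these 10 bath genes 4 were listed in lin-65 alone, beside 4.20% of all genes listed higher. bath-3 (chromosome II) stood at 1.66, 1.42 and 1.68 in the double mutant, 1.90, 2.08 and 1.69 in lin-65 and 1.98, 2.001 and 2.11 in met-2. It was more than 2-fold above the baseline in every library, and its double mutant libraries were all below those of met-2. bath-19 stood at 1.21, 1.20 and 0.91 in the double mutant, 1.00, 1.15 and 1.04 in lin-65 and 1.54, 1.81 and 1.64 in met-2. bath-20, its neighbour on the same strand, stood at 0.066, 0.30 and 0.59 in the double mutant, 0.75, 0.83 and 0.86 in lin-65 and 1.18, 1.22 and 1.54 in met-2. In both genes every library of the double mutant was below every library of met-2. bath-45, listed in met-2 alone, stood at 0.48 ± 0.31 in the double mutant, with 0.66 ± 0.12 in lin-65 and 1.20 ± 0.24 in met-2 (mean ± SD, n = 3). bath-47 had the largest mean of all adaptor genes in the double mutant. It stood at 2.15, 1.96 and 2.23 in the double mutant, 0.41, 1.01 and 1.19 in lin-65 and 2.21, 1.72 and 1.25 in met-2. Its double mutant libraries were above every lin-65 library, and it overlaps bath-33 on the opposite strand. bath-26, which lies beside it and overlaps bath-46 on the opposite strand, stood at 1.05 ± 0.29 in the double mutant, with 0.46 ± 0.50 in lin-65 and 0.82 ± 0.32 in met-2 (mean ± SD, n = 3).

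Another set of bath and btb genes had their largest mean in lin-65. These genes, bath-27, bath-29, bath-30, bath-2, btb-19 and btb-20, were listed in lin-65 alone. That order thus largely follows from how they entered the set, which also favours separate lin-65 libraries. bath-27 stood at 0.42, 0.31 and 0.48 in the double mutant, 0.96, 1.10 and 0.96 in lin-65 and 0.22, −0.13 and 0.22 in met-2. Its lin-65 libraries were all above those of both other mutants, and its met-2 libraries lay near the baseline. bath-29 and bath-30, which lie near it on chromosome II, were outside the naming rule and were added after their values were seen. bath-29 stood at 0.35, 0.60 and 0.68 in the double mutant, 1.30, 1.27 and 1.14 in lin-65 and 0.46, 0.29 and 0.53 in met-2. bath-30 stood at 0.59, 0.61 and 0.64 in the double mutant, 1.00, 1.10 and 0.91 in lin-65 and 0.39, 0.40 and 0.35 in met-2. Both had every lin-65 library above every library of the double mutant and met-2. bath-27 overlaps lido-14 on the same strand and bath-29 overlaps F14D2.8 on the opposite strand. The adjacent genes btb-19 and btb-20, which encode BTB proteins, lie elsewhere on chromosome II. btb-19 stood at 0.52, 0.59 and 0.74 in the double mutant, 1.04, 1.17 and 1.06 in lin-65 and 0.31, 0.49 and 0.55 in met-2. btb-20 stood at 0.91, 1.15 and 0.93 in the double mutant, 1.11, 1.34 and 1.21 in lin-65 and 0.63, 0.69 and 0.86 in met-2. The lin-65 libraries of btb-19 exceeded all others, whereas those of btb-20 exceeded met-2 and overlapped the double mutant. bath-2 stood at 0.82, 0.80 and 1.15 in the double mutant, 1.29, 1.38 and 1.11 in lin-65 and 0.93, 0.91 and 0.87 in met-2. Its lin-65 libraries overlapped those of the double mutant. The lone member of these families listed lower, bath-34 on chromosome I, stood at −1.38, −1.57 and −1.17 in the double mutant, −1.27, −0.87 and −1.16 in lin-65 and 0.17, −0.25 and 0.013 in met-2. It was near the baseline in met-2 and below it in every library of the mutants that lack LIN-65.

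**Figure D2:**
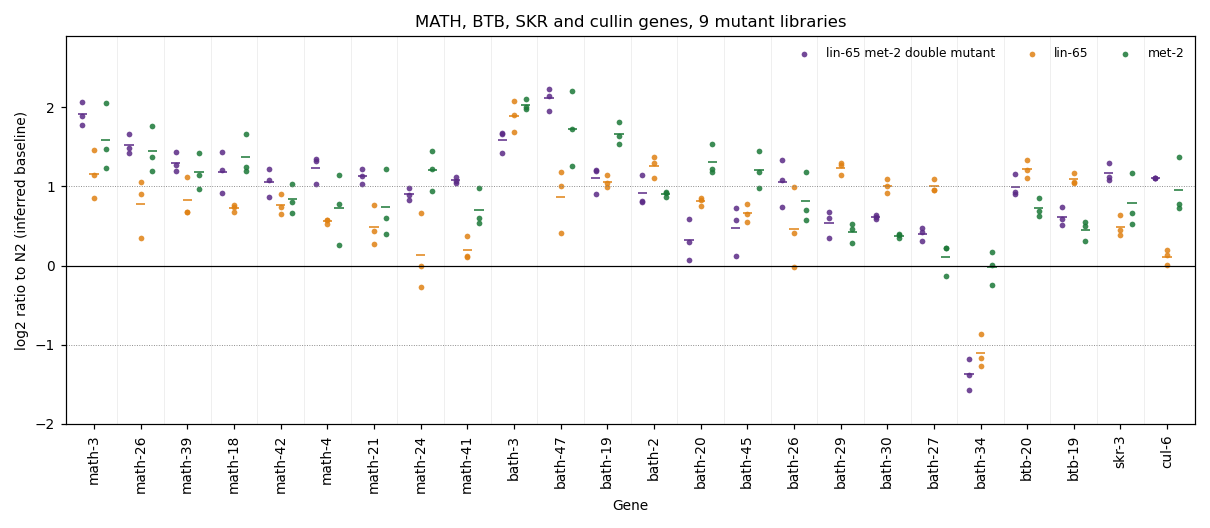
Log2 ratio to the inferred N2 baseline (vertical axis) of the 22 math, bath and btb genes and of skr-3 and cul-6, with 1 point per library in columns for the double mutant, lin-65 and met-2 from left to right, short bars for means of 3 libraries and dotted lines at 2-fold. All genes except bath-34 have means above 0, and cul-6 and math-24 have their lowest libraries in lin-65.

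The core of the ligases was represented by a single skr and a single cul gene, of 20 and 6 annotated. SKR-3 and CUL-6 belong to a ligase of the intracellular pathogen response, together with the RING protein RCS-1 and the F-box protein FBXA-158. cul-6 (chromosome IV) stood at 1.10, 1.11 and 1.11 in the double mutant, 0.0078, 0.13 and 0.20 in lin-65 and 1.37, 0.78 and 0.72 in met-2. The lin-65 libraries were all below those of the other mutants, with replicate 1 nearest to the baseline. skr-3 (chromosome V) stood at 1.08, 1.29 and 1.12 in the double mutant, 0.45, 0.64 and 0.39 in lin-65 and 1.18, 0.66 and 0.52 in met-2. It had the same order of means, but lin-65 and met-2 overlapped. The partners rcs-1 and fbxa-158 were both in the tables of the double mutant and met-2 and not in that of lin-65. The same was true of 40.75% of all genes listed higher. rcs-1 stood at 1.47 ± 0.25 in the double mutant, with 0.62 ± 0.25 in lin-65 and 1.25 ± 0.25 in met-2 (SD, n = 3). fbxa-158 stood at 1.21 ± 0.30 in the double mutant, with 0.77 ± 0.096 in lin-65 and 1.31 ± 0.44 in met-2. In the list of 12 genes of that response 5 had values, and 4 of these were the ligase genes above. The fifth, the heat shock gene hsp-16.2, was listed lower in the double mutant and lin-65. Most of the common machinery had no value. No proteasome gene of 33 was in the tables. rcs-1 was the only gene with values among 19 RING, NEDD8, COP9 signalosome and related factors. Of 24 other named adaptors kel-1 and kel-8, Kelch proteins with a BTB domain, had values, with means of 0.60 to 1.22 over the 3 mutants. Both were higher in the double mutant than in lin-65 by limma, as were 74.3% of all genes with values. Of 25 ubiquitin, E1 and E2 genes the conjugating enzymes ubc-8 and ubc-17 had values, with means of 0.73 to 1.39, and neither was called between mutants.

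The comparison of lin-65 with met-2 asks whether loss of the cofactor and loss of the enzyme leave the same adaptor transcripts. By limma, 9 of the 52 genes were higher in lin-65 than in met-2, which is 17.3% beside 4.92% of all genes with values. Lower in lin-65 were 18, which is 34.6% beside 41.9%. The higher genes were the F-box genes fbxa-107, fbxa-2, fbxa-206 and fbxa-218 and the BTB genes bath-27, bath-29, bath-30, btb-19 and btb-20. All but fbxa-218 were listed in lin-65 alone. Their tests thus draw on the values that brought them into the set, which the p-values do not allow for. fbxa-107 had a difference of 1.46 (SE 0.18, adjusted p = 7.05e-06). For bath-27 the difference was 0.90 (SE 0.17, adjusted p = 5.09e-04) and for bath-29 it was 0.81 (SE 0.17, adjusted p = 0.0012). fbxa-218 was higher although it was listed lower, with a lin-65 mean nearer to the baseline. In limma its call was lost without replicate 3 of lin-65 or without replicate 2 or 3 of met-2, and that of btb-20 without any of the lin-65 replicates or in the fit of 6 libraries, with adjusted p of at most 0.0784 and 0.0764. The 7 germ line and oocyte markers with values were also all higher in lin-65 than in met-2, and their part in these differences was not tested.

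Among the 18 genes lower in lin-65 than in met-2 were members of every family except btb, fbxc and skr. fbxa-24 had a difference of −1.26 (SE 0.19, adjusted p = 5.61e-05) in limma's test. fbxb-97 had one of −1.14 (SE 0.18, adjusted p = 7.94e-05). bath-34, the bath gene listed lower, had one of −1.08 (SE 0.19, adjusted p = 2.23e-04). The gene for the cullin of the pathogen response was among these, cul-6 having a difference of −0.84 (SE 0.19, adjusted p = 0.00198). math-24, listed in met-2 alone, had one of −1.07 (SE 0.22, adjusted p = 9.88e-04). The 18 also included bath-20 and bath-45, listed in met-2 alone, and fbxb-64, listed in lin-65 alone. The tests of these genes and of math-24 draw on the values that brought them into the set. Over all genes the median difference was −0.42, and setting each library to a median of 0 removed 0.38 of it. Under that scaling the 9 higher calls remained, with the lower calls of fbxa-24, fbxb-97, bath-34, cul-6 and math-24. The other 13 lower calls were lost. The scaling raises every difference here, so higher calls were favoured by its construction. The split among adaptor genes was then 14 higher and 5 lower, beside 366 and 523 among all genes.

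The comparison of the double mutant with lin-65 asks what loss of MET-2 adds when LIN-65 is already missing. By limma, 17 of the 52 genes were higher in the double mutant, which is 32.7% beside 74.3% of all genes, and 13 were lower, which is 25% beside 4.61%. The higher genes were 8 of the 9 math genes, bath-47, bath-26, skr-3, cul-6, fbxb-114 and 4 fbxa genes. Of these bath-26, cul-6, fbxa-157, math-21, math-4, math-41 and skr-3 were listed in the double mutant alone, so their tests draw on selecting values. The 8 math genes had differences of 0.46 to 0.87. bath-47 had a difference of 1.25 (SE 0.24, adjusted p = 3.13e-04) in limma's test. fbxa-24 had one of 1.13 (SE 0.19, adjusted p = 1.21e-04). Both ligase core genes were higher, cul-6 with 1.00 (SE 0.19, adjusted p = 2.98e-04) and skr-3 with 0.67 (SE 0.19, adjusted p = 0.00488). The 9 body wall muscle markers with values were also all higher in the double mutant than in lin-65, and their part in these differences was not tested. The higher calls depended on scaling. When each library was set to a median of 0, which took 0.64 from every difference, bath-47, fbxa-24 and cul-6 remained higher and the other 14 calls were lost. Of these 14 genes 5 changed sign, bath-26 to −0.051, fbxa-137 to −0.17, math-18 to −0.18, math-21 to −0.0054 and math-39 to −0.17. The split among adaptor genes was then 3 higher and 31 lower, beside 637 higher and 486 lower among all genes.

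The 13 genes lower in the double mutant than in lin-65 included 8 listed higher and 5 listed lower, and all 13 calls held under that scaling. It lowers every difference, so lower calls were favoured by its construction. fbxa-107 had the largest difference of any adaptor gene in the 3 comparisons, −2.27 (SE 0.18, adjusted p = 1.77e-07) in limma's test. fbxa-211 near it had one of −0.51 (SE 0.17, adjusted p = 0.0118). Of the BTB genes with their largest mean in lin-65, bath-29 had −0.70 (SE 0.17, adjusted p = 0.0019) and bath-27 had −0.60 (SE 0.17, adjusted p = 0.00494). fbxa-206 had −0.54 (SE 0.17, adjusted p = 0.00882). Of the genes listed lower, fbxa-218 had −0.78 (SE 0.21, adjusted p = 0.00356). The chromosome IV genes fbxc-12 and fbxc-8 (WBGene00019072) followed with −0.57 (SE 0.17, adjusted p = 0.00633) and −0.59 (SE 0.17, adjusted p = 0.00628). The other 5 were bath-20, btb-19, fbxb-92, bath-30 and fbxc-8 (WBGene00045301). Each of these lost its call in limma when certain single libraries were left out, with adjusted p of up to 0.20. Of the 13 genes, fbxa-107, fbxa-206, bath-27, bath-29, bath-30 and btb-19 were listed in lin-65 alone. fbxb-92, fbxc-12 and both fbxc-8 genes were listed in the double mutant alone. The tests of these genes draw on the values that brought them into the set. The 7 germ line and oocyte markers with values were all lower in the double mutant than in lin-65 as well, and their part was not tested. In all, 11 of the 38 genes listed higher had their largest mean in lin-65, which is 28.9% beside 6.01% of all genes listed higher. Listed in lin-65 alone were 10, which is 26.3% beside 4.20%. These shares describe the deposited selection and were not tested.

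The comparison of the double mutant with met-2 asks what loss of LIN-65 adds when MET-2 is already missing. No adaptor gene was higher in the double mutant by limma, beside 11.8% of all genes, and 13 were lower, which is 25% beside 4.92%. At an unadjusted p under 0.05 limma had 2 of the 52 genes higher, beside 33.4% of all genes, and 16 lower, beside 7.32%. bath-34 had a difference of −1.35 (SE 0.19, adjusted p = 7.22e-05). fbxb-97 had one of −1.16 (SE 0.18, adjusted p = 2.37e-04) and bath-20 one of −0.99 (SE 0.18, adjusted p = 0.00154) in limma's test. The nearby F-box genes fbxa-211 and fbxa-107 were both lower, with −0.88 (SE 0.17, adjusted p = 0.00217) and −0.80 (SE 0.18, adjusted p = 0.00793). These 5 calls held under every alternative tried. Setting library medians to 0 lowers every difference in this comparison, which favours lower calls by its construction. The other 8 lower genes were fbxa-47, fbxb-14, fbxc-12, fbxb-115, bath-45, fbxc-8 (WBGene00019072), bath-19 and fbxb-92, with differences of −0.83 to −0.54. In limma each of these 8 lost its call in at least 1 of the fits without a single library, with adjusted p of up to 0.161. By direction, 8 of the 14 genes listed lower were lower in the double mutant than in met-2, which is 57.1% beside 47.3% of all genes listed lower. None of these 8 was listed in met-2. Of them fbxb-115, fbxb-92, fbxc-12 and fbxc-8 (WBGene00019072) were listed in the double mutant alone, so the count partly restates the selection. Of the 38 listed higher 5 were lower, which is 13.2% beside 1.99%. Among those 5, bath-20 and bath-45 were listed in met-2 alone.

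The number of adaptor genes called between the double mutant and met-2 moved with replicate 1 of met-2, the library with the highest median. Without it 29 adaptor genes differed by limma, 13 higher and 16 lower, beside 1762 higher and 198 lower among all 2949 genes. Without replicate 3 of met-2 there were 8 calls, all lower, beside 68 higher and 103 lower among all genes. Without replicate 1, 2 or 3 of the double mutant there were 8, 6 and 8, again all lower, beside 194, 170 and 153 calls among all genes, of which 93, 77 and 62 were higher. Weighting libraries by their spread gave 14 higher and 18 lower, beside 1992 and 245 among all genes. Setting each library to a median of 0 gave 18 lower and none higher, beside 272 lower and 143 higher among all genes. The genes without a call were not shown to be alike. The 95% limma interval of the difference was −0.25 to 0.55 for cul-6, −0.023 to 0.78 for skr-3 and −0.13 to 0.78 for math-3.

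**Figure D3:**
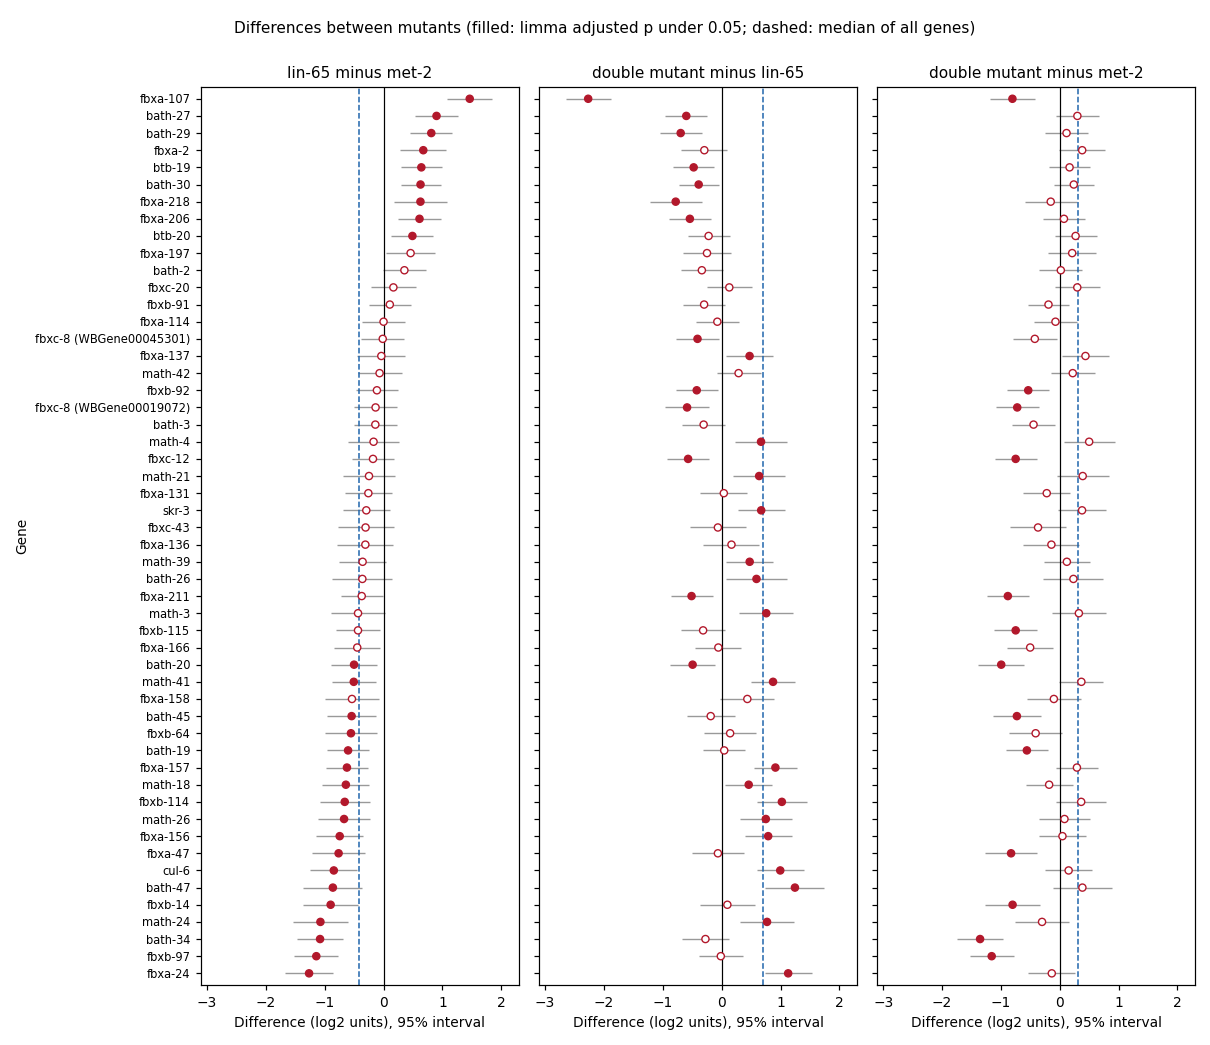
Difference in log2 units (horizontal axis) for each of the 52 genes (vertical axis, ordered by lin-65 minus met-2) with its 95% limma interval, in panels for lin-65 minus met-2, double mutant minus lin-65 and double mutant minus met-2, where filled points have an adjusted p under 0.05 and dashed lines give the median over all 2949 genes, −0.42, 0.70 and 0.32. fbxa-107 is at the top of the first panel at 1.46 and farthest left in the second at −2.27, and no filled point lies right of 0 in the third.

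The adaptor genes lay toward the ends of chromosomes, as their families do. With each chromosome of the WBcel235 annotation divided into 3 equal stretches, all 52 lay in a left or right stretch. The same was true of 416 of the 438 annotated family genes and of 60.3% of the 2869 genes with values that matched the annotation. Chromosome II held 30 of the adaptor genes (57.7%, beside 42.7% of the annotated families and 17.1% of matched genes), 27 of them in its left stretch. Chromosome V held 14, with 13 in its right stretch. When genes with gaps of at most 20 kb were joined, 29 fell into 11 groups of 2 to 4. In 10 of these groups all genes had 1 direction. The exception held math-41 and math-39, listed higher, beside fbxb-97, listed lower. Most adaptor genes were listed higher anyway, 38 of the 52 and 25 of the 30 on chromosome II. Many groups would therefore share a direction without any link between neighbours, and the count was not tested. Genes within a group are also not all independent. math-26 and math-3 overlap, and reads may have been divided between fbxc-12 and the fbxc-8 genes. Genes of a group did not always share the order of the mutants. math-24 stood at 0.90 ± 0.072 in the double mutant, with 0.13 ± 0.48 in lin-65 and 1.20 ± 0.26 in met-2 (mean ± SD, n = 3). bath-2, in the same group, stood at 0.92 ± 0.20 in the double mutant, with 1.26 ± 0.14 in lin-65 and 0.90 ± 0.029 in met-2. The lowest mean was thus in lin-65 for math-24, whereas lin-65 was highest for bath-2. fbxa-107 and fbxa-211 had means of −0.57 and 0.92 in the double mutant, where they lay on opposite sides of the baseline. By contrast bath-30, bath-29 and bath-27 all had their largest mean in lin-65. All were listed in lin-65 alone, which largely fixes that order.

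**Figure D4:**
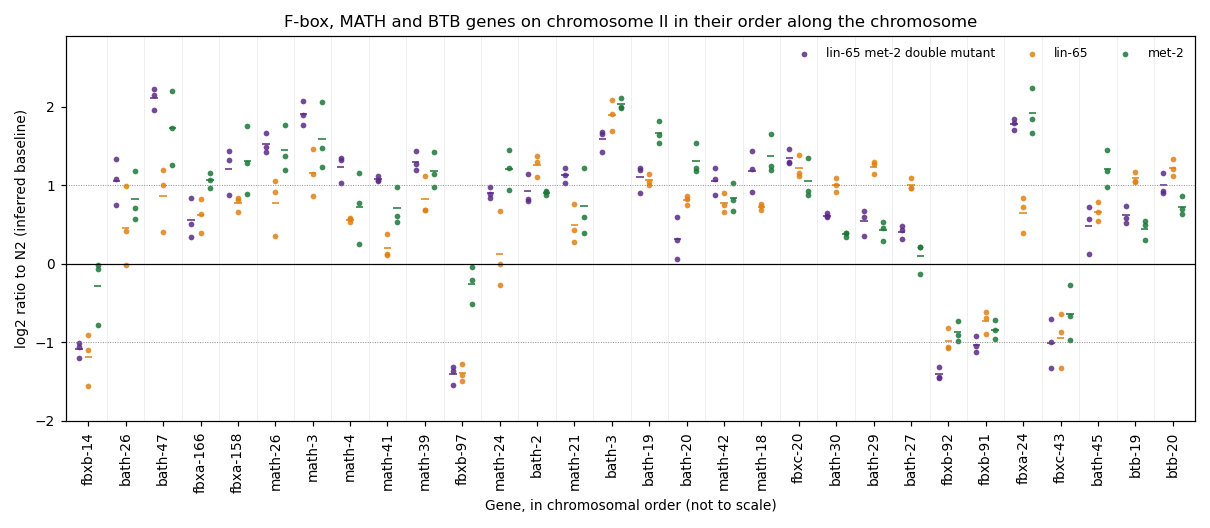
Log2 ratio to the inferred N2 baseline (vertical axis) of the 30 genes on chromosome II, in their order along the chromosome and not to scale (horizontal axis), with 1 point per library in columns for the double mutant, lin-65 and met-2 from left to right, short bars for means and dotted lines at 2-fold. The 5 genes below 0 are the fbxb genes fbxb-14, fbxb-97, fbxb-92 and fbxb-91 and the fbxc gene fbxc-43, among 25 genes above 0.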

How the data were processed

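RNA depleted of ribosomal RNA (5 µg of total RNA) was sequenced from early embryos, per the labels' protocols. The submitters' processing notes name edgeR and ce10. Aligner, counting, strand, annotation, scaling and selection rule: not given in the sources used here. Values were log2 ratios of 9 mutant libraries, which the authors deposited in 3 tables, whose union of 2949 genes was used. A gene found in more than 1 table had the same values there. Symbols, chromosomes and neighbours were looked up by identifier in Ensembl 115 (WBcel235), where 2869 genes matched and 80 did not. Since ce10 is another build, no coordinates are given.

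All 9 libraries entered 1 limma fit without a block (limma 3.58.1, R 4.3.3), checked on simulated data. No count test applies to log2 ratios. Alternatives were centring on library medians, a replicate block, library weights, fits of 6 libraries and leaving out each library. Same-numbered replicates did not deviate together, so the numbers were not taken to pair libraries. The members and gene lists were chosen with earlier results of these data known. Values in every library are given for the 4 genes with the largest absolute mean in each family and direction, the 8 largest called differences per comparison, every skr and cul gene, and genes over 0.5 log2 units in size with opposite signs in 2 mutants, 38 genes in all. Other genes were named after their values were seen.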

Additional observations from a re-analysis of the deposited data

Results flagged for a closer look

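fbxa-107 is set apart because every double mutant library lay below the baseline and every lin-65 library above it, with a difference of −2.27 (SE 0.18, adjusted p = 1.77e-07) for the double mutant minus lin-65 in limma's test across all genes. It stood at −0.70, −0.51 and −0.51 in the double mutant and 1.64, 1.92 and 1.53 in lin-65. The difference held under every alternative, with adjusted p of at most 1.45e-05 in limma. fbxa-107 was listed in lin-65 alone, so these p-values do not allow for its selection on the lin-65 values.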

How the results depend on the processing

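Depth is unknown, N2 has no values, and 3 libraries per mutant limit the precision. Setting each library to a median of 0 moved the median of genes listed higher to −0.39 in the double mutant, with 0.011 in lin-65 and −0.13 in met-2. That of genes listed lower moved to −2.65, −1.81 and −1.74. The tables hold mostly genes higher than N2, so this scaling also removes any general effect. It reversed bath-26 (−0.051), fbxa-137 (−0.17), math-18 (−0.18), math-21 (−0.0054) and math-39 (−0.17) in the double mutant against lin-65, by its construction. In the double mutant against met-2, 13 genes were called, 32 with library weights, and from 6 to 29 with 1 library left out, beside 493, 2237 and from 153 to 1960 among all genes; the cause was not tested. With 1 library left out, 22 to 34 genes were called in the double mutant against lin-65, where 30 were, beside 1987 to 2501 of all genes, where 2326 were. In lin-65 against met-2 20 to 27 were called, where 27 were, beside 903 to 1565 of all genes, where 1381 were. With 1 lin-65 library left out, the lin-65 median of the 38 genes listed higher in any mutant ranged from 0.90 to 0.95. It was 0.85 with all libraries. At a 4-fold limit, the genes listed higher numbered 1 in the double mutant, none (0) in lin-65 and 1 in met-2. Those listed lower numbered 0 in each. The replicate block gave 11 calls in the double mutant against met-2, 27 in the double mutant against lin-65 and 27 in lin-65 against met-2. Same-numbered libraries had correlations of deviations from −0.21 to 0.042, and not every sample correlated best with its own number. In these 3 comparisons, in the same order, 5 of 13, 11 of 30 and 12 of 27 calls held under every alternative. Counting near-identical proteins once was not run, since no protein sequences were used here.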
